A study of Mus musculus with 11 samples.

Results

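Globin messenger RNA, made in quantity by developing red blood cells, was followed through libraries of sorted mouse bone marrow stroma. The genes were the alpha globins Hba-a1 and Hba-a2, the beta globins Hbb-bs and Hbb-bt, the haem enzyme gene Alas2 and the anion exchanger gene Slc4a1. They are 6 of the 16576 gene identifiers found in any of the 3 deposited tables, and they were taken by gene name. They were picked because their counts differed between the groups of these same libraries, so their levels are given as a description, and where a fit over all genes calls them nothing is read from it. The sum of the 4 globin genes is given beside the single genes, since the copies of each pair are nearly identical in sequence and reads may be divided between them.

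PolyA RNA had been sequenced from cells isolated by flow cytometry as bone marrow stroma. The comparisons concern age, the surface protein Sca1 and deletion of Igf1r, which encodes a receptor for insulin-like growth factors. The groups were 3 adult wild-type samples sorted on PDGFRa and CD51, 2 wild-type samples labelled PDGFRa+Sca1- (replicates 2 and 3), 3 Igf1r knockout samples sorted as PDGFRa+Sca1+, and 3 wild-type samples labelled PDGFRa+Sca1+. The wild-type Sca1-sorted cells are called postnatal in the sample labels and perinatal in the study design, which places the knockouts among the perinatal cells as well. No exact ages are given. The knockouts carried Cre and the wild-type Sca1-positive samples did not, by their titles, so Cre and the deletion cannot be told apart, and the labels name no Cre driver. Age and sort gate also changed together between adult and perinatal cells.

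Separate animals are not named in the labels, so a p-value here reflects variation among the libraries at hand, part of which may be technical. Total counts per library lay between 13412316 and 23782217. The 11 samples correspond to 12 libraries, because the age and knockout tables hold distinct libraries under the name Sca1-positive 1. Only 1.72% of their 14843 shared genes had the same count. Replicates 2 and 3 of that group are the same libraries in each table they appear in, and so serve as a shared control in all 3 comparisons. Igf1r had 182, 80 and 77 counts in the knockout libraries and 599, 548 and 444 in the Sca1-positive libraries (log2 fold change -2.55, SE 0.34, edgeR adjusted p = 0.0816), and the groups did not overlap. Ly6a, which encodes Sca1, ran against the labels: it had 10159 and 9112 counts in the libraries labelled Sca1-negative, against 239 and 145 in those labelled Sca1-positive 2 and 3. In the knockout table it had 17051, 12936 and 22125 counts in knockouts and 8624 in Sca1-positive 1. Groups are therefore named by their labels, and results that rest on Sca1-positive 2 and 3 are given with and without them where the design allows. Pdgfra, the gene of the receptor used in every gate, had 193 to 262 counts in adult libraries and 4002 to 9673 in the others. Ly6a is not listed in the age table.

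Haemoglobin is a tetramer of alpha and beta globin chains, each holding a haem group that binds oxygen. In the marrow, red cell precursors mature on macrophages in erythroblastic islands, build up globin mRNA until it dominates their transcripts, and then lose the nucleus. Alas2 encodes the erythroid form of 5-aminolevulinate synthase, the rate-limiting enzyme of haem synthesis, whereas its relative Alas1 serves most other tissues. Slc4a1 encodes band 3, which exchanges chloride and bicarbonate across the red cell membrane and anchors the membrane skeleton. Erythroid transcription depends on GATA1, which binds GATA motifs, and on KLF1, which binds CACCC motifs.

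The alpha genes lie in tandem on chromosome 11 on the plus strand (GRCm38, GENCODE M21): Hba-a1 (ENSMUSG00000069919) at chr11:32283511-32284465 and Hba-a2 (ENSMUSG00000069917) at chr11:32296489-32297298. The beta genes lie on chromosome 7 on the minus strand: Hbb-bt (ENSMUSG00000073940) at chr7:103812524-103813996 and Hbb-bs (ENSMUSG00000052305) at chr7:103826534-103828096. Alas2 (ENSMUSG00000025270) is at chrX:150547375-150570638 on the plus strand, and Slc4a1 (ENSMUSG00000006574) at chr11:102348824-102366203 on the minus strand.

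The coding sequences show how far the copies can be separated by reads. Over 426 coding bases, Hba-a1 and Hba-a2 differed at 1 base, C381T, and over 441 coding bases Hbb-bs and Hbb-bt differed at 1 base, C417T. Positions count from 1 at the first base of the start codon, and each change is at the third base of its codon. The stretches of 60 bases around these positions follow, 5′ to 3′ in the direction of the gene, with the differing base in capitals.
Hba-a1: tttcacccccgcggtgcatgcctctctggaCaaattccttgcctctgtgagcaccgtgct
Hba-a2: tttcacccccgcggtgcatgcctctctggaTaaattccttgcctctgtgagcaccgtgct
Hbb-bs: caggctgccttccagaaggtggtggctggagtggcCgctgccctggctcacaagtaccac
Hbb-bt: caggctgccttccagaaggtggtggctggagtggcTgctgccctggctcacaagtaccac
Outside the coding part the transcripts of a pair diverge more. Of the 50-base windows of the Hba-a1 transcript, 67.5% also occur in Hba-a2, and 65.8% of those of Hbb-bs also occur in Hbb-bt. At 100 bases the shares were 56.5% and 62.6%. The alpha and beta coding sequences were 57.5% identical and shared no window of 50 bases, so the alpha sum and the beta sum are separable even where the copies are not.

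The promoters of the genes that moved together were read from RefSeq (GRCm38.p6), as the 250 bases before the RefSeq start, and 5 of the 6 genes had an entry. Capitals mark matches on either strand to the GATA motif, spelled GATAA. They also mark the CACCC box and the CCAAT box. The fourth motif is the TATA-like ATATAA. A match on the reverse strand appears in its reverse complement. The windows are Hba-a1 at chr11:32283422-32283671 (plus strand), Hbb-bs at chr7:103827929-103828178 (minus strand), Hbb-bt at chr7:103813924-103814173 (minus strand) and Alas2 at chrX:150547167-150547416 (plus strand).
Hba-a1: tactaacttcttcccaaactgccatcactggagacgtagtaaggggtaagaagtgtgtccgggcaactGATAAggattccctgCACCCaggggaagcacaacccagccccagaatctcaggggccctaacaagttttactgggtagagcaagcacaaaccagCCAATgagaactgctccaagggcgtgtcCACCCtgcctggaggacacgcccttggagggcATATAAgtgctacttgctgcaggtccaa
Hbb-bs: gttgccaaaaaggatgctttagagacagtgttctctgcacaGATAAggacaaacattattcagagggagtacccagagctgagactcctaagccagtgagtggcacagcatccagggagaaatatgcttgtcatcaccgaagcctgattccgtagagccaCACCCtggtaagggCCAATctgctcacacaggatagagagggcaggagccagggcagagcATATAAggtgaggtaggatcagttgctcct
Hbb-bt: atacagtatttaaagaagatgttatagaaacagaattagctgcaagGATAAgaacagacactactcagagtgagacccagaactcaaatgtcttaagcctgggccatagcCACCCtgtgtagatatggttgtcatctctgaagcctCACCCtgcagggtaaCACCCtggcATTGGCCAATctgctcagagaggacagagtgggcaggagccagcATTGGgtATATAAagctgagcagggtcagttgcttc
Alas2: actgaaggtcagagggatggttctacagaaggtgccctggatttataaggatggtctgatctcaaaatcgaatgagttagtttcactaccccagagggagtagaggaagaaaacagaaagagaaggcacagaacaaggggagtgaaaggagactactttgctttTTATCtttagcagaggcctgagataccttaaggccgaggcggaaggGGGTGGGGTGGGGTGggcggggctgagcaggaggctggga
The Hba-a2 window shares a run of 247 bases with that of Hba-a1. The beta pair was 69.3% identical over this window, with a longest shared run of 14 bases, so the beta promoters diverged far more than their coding sequences. Each of the 4 globin windows held all 4 motifs, which 0.466% of 32851 RefSeq windows of this length did. That share is a description and not a test, and the alpha windows, nearly the same sequence, are not separate cases. Singly, GATAA was found in 22.6% of those windows, CACCC in 52.0%, CCAAT in 33.8% and ATATAA in 9.1%. In the globin promoters ATATAA began 28 to 31 bases before the start. Hbb-bt held 3 CACCC and 3 CCAAT matches, of which a reverse and a forward CCAAT adjoin. Alas2 held 1 GATAA and 3 adjoining CACCC matches on the reverse strand, and neither of the other motifs in this window. These matches are descriptions of letters and were not linked to factor binding here.

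Adult libraries held no globin read. Each of the 4 globin genes had 0 counts in adult replicates 1, 2 and 3, which allows up to 0.174, 0.177 and 0.224 CPM (counts per 1000000 counts, with 3 counts as the limit a count of 0 allows). In the libraries labelled Sca1-positive 1, 2 and 3 of the same table, Hba-a1 had 3806, 7886 and 8370 counts and Hba-a2 had 4356, 8372 and 8652. Hbb-bs had 2360, 4320 and 5023 counts in those libraries, and Hbb-bt had 829, 1729 and 1769. The separation was complete, and Sca1-positive 1 was the lowest of the Sca1-positive libraries for every globin.

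Summed, the globins took 0 CPM in each adult library and 765.6, 1287.5 and 1647.1 CPM in Sca1-positive 1, 2 and 3, a mean of 1233.4 ± 443.2 CPM (SD, n = 3). With the floor of 3 counts per library set for the sum, the adult sum was at least 6445-fold lower. For single genes, the adult level was at least 2248-fold lower for Hba-a1, 2396-fold for Hba-a2, 1316-fold for Hbb-bs and 484-fold for Hbb-bt. Without Sca1-positive 2 and 3, the log2 ratio of the summed globins at that floor was -11.97, against -12.65 with them.

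The haem and membrane genes were separated in the same direction, at much lower levels. Alas2 had 0, 1 and 0 counts in adult libraries and 66, 161 and 197 in the Sca1-positive libraries. On the pooled counts its adult level was 433.6-fold lower, with an exact 95% interval of 77.4 to 17166 that covers counting error only. Slc4a1 had 0 counts in each adult library and 17, 32 and 34 in the Sca1-positive libraries, at least 9-fold lower in adults. Its bound is small because few reads were counted in any library. Alas1, the form used outside red cells and on none of the lists, was higher in adult cells, with 1081, 998 and 898 counts against 574, 481 and 426 (log2 fold change 0.70, SE 0.16, edgeR adjusted p = 0.00464). The 6 genes were lower in adult cells without overlap in 6 of 6 cases, where 35.7% of the 13757 genes tested were lower without overlap, and the edgeR fit called 39.7% lower and 37.4% higher. Nothing is read from that count, since the genes were picked on it.

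**Figure D1:**
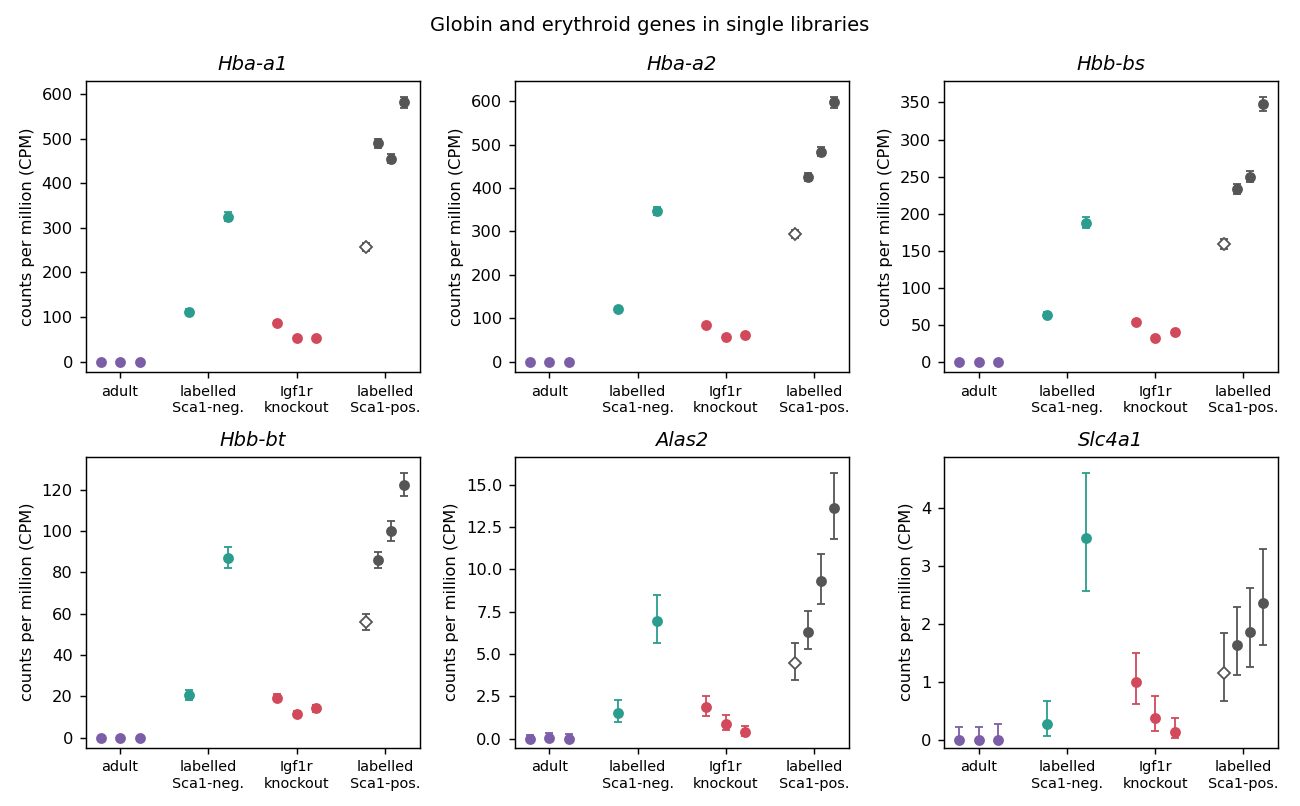
CPM of each gene in single libraries, one panel per gene, on linear axes of different range. Points are libraries with exact 95% Poisson intervals, the open diamond is Sca1-positive 1 of the age table and filled grey points are the Sca1-positive libraries of the knockout table. Adult libraries sit at or near 0, knockouts lie below every Sca1-positive library, and the libraries labelled Sca1-negative are spread widely.

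In the libraries labelled Sca1-negative, the globins were present at an intermediate and uneven level. Hba-a1 had 1706 and 4502 counts in Sca1-negative 2 and 3, against 7886 and 8370 in Sca1-positive 2 and 3. Hba-a2 had 1837 and 4797 counts in the Sca1-negative libraries and 8372 and 8652 in the Sca1-positive ones. In both genes, replicate 3 held more than replicate 2 of the same label. For the beta genes, Hbb-bs had 963 and 2596 counts in Sca1-negative libraries and 4320 and 5023 in Sca1-positive libraries. Hbb-bt had 314 and 1205 counts against 1729 and 1769.

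Scaled to library size, the globin sum was 316.1 and 946.8 CPM in the Sca1-negative libraries and 1287.9 and 1647.6 CPM in the Sca1-positive libraries. The ratio of group means was 43.0%, or -1.22 on the log2 scale. The SD of the Sca1-negative pair, 446.0 CPM around a mean of 631.5 CPM, was large, and the lowest Sca1-positive library was 1.36-fold above the highest Sca1-negative one. The ratio was -0.63 on the log2 scale without Sca1-negative 2 and -2.22 without Sca1-negative 3, so its size rests on which library is kept. Sca1-positive 1, which is not in this table, had 765.6 CPM in the age table and so fell below Sca1-negative 3, with levels set across tables that were made separately. Since Ly6a ran against these labels, the libraries with the higher globin sum were those with few Ly6a reads in this comparison.

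Alas2 followed the globins here and Slc4a1 did not. Alas2 had 23 and 96 counts in Sca1-negative libraries and 161 and 197 in Sca1-positive libraries, a log2 ratio of mean CPM of -1.44. Slc4a1 had 4 and 48 counts in Sca1-negative 2 and 3, against 32 and 34 in Sca1-positive 2 and 3, and the groups overlapped. The exact 95% intervals of Slc4a1 in the Sca1-negative libraries, 0.0715 to 0.672 CPM and 2.56 to 4.60 CPM, did not meet each other, so these libraries differed by more than counting error. Of the 6 genes, 5 were lower without overlap, where 27.6% of the 13529 genes tested were, and the edgeR fit called 2.79% of genes lower and 1.63% higher. Here too nothing is read from the count, since the genes were picked on these values.

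Igf1r knockout libraries held globin reads in every replicate, at the lowest levels of the perinatal libraries. Hba-a1 had 1940, 1021 and 1268 counts in knockouts 1, 2 and 3, against 9930, 7887 and 8394 in Sca1-positive 1, 2 and 3 of the knockout table. Hba-a2 had 1860, 1090 and 1434 counts in knockouts and 8621, 8372 and 8628 in Sca1-positive libraries. For both alpha genes the groups were far apart, and knockout 1 was the highest of its group.

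The beta genes had the same order. Hbb-bs had 1188, 620 and 943 counts in knockouts and 4732, 4320 and 5023 in Sca1-positive libraries. Hbb-bt had 427, 215 and 335 counts in knockouts, against 1744, 1729 and 1769. The log2 ratios of mean CPM were -2.97 for Hba-a1, -2.90 for Hba-a2, -2.72 for Hbb-bs and -2.79 for Hbb-bt, so the 4 genes were lower by similar amounts.

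The globin sum was 244.1, 155.3 and 167.4 CPM in knockouts (188.9 ± 48.2, SD, n = 3) and 1234.3, 1288.4 and 1648.5 CPM in Sca1-positive libraries (1390.4 ± 225.2, SD, n = 3). The knockout mean was 13.6% of the Sca1-positive mean, and the lowest Sca1-positive library was 5.06-fold above the highest knockout. Sca1-positive 1, the library of this group with many Ly6a reads, lay near Sca1-positive 2. Without Sca1-positive 2 and 3, which leaves Sca1-positive 1 alone in its group, the log2 ratio was -2.71, against -2.88 with them. The libraries labelled Sca1-negative also had many Ly6a reads, and their globin sums were 316.1 and 946.8 CPM in a separately made table. Whether the difference depends on the Ly6a level was not tested.

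Alas2 had 41, 16 and 9 counts in knockouts and 128, 161 and 197 in Sca1-positive libraries, a log2 ratio of -3.25. Slc4a1 had 22, 7 and 3 counts in knockouts and 33, 32 and 34 in Sca1-positive libraries, a log2 ratio of -1.97. For Slc4a1, knockout 1 stood nearest to the Sca1-positive range, with an exact 95% interval of 0.621 to 1.5 CPM against 1.12 to 2.29 CPM in Sca1-positive 1. These intervals overlap, so the pair cannot be separated by counting error alone. The 6 genes were lower without overlap in 6 of 6 cases, where 12.6% of 13590 genes were. As for age, nothing is read from that count, since the genes were picked on these values.

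The edgeR fit of this comparison called 5 genes lower, 0.0368% of those tested, and 0 higher, and the count depends on the fit. The 5 were the 4 globins, which the choice of genes had used, and Msmp, named after its values were seen, with 0, 0 and 0 counts in knockouts and 340, 862 and 942 in Sca1-positive 1, 2 and 3. Msmp passed the filter on low counts only through the Sca1-positive libraries. At an unadjusted p under 0.05, 1647 genes were higher and 1316 lower, and DESeq2 called 474 higher and 493 lower. With the replicate number as a block, 0 genes were called. Leaving out knockout 1 gave 1532 higher and 1471 lower, leaving out Sca1-positive 1 gave 95 higher and 211 lower, and leaving out any other single library gave no call.

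Across groups the globin sum was lowest in adults, then in knockouts, then in libraries labelled Sca1-negative, and highest in those labelled Sca1-positive, with levels set across separately made tables. The highest knockout, at 244.1 CPM, lay below the lowest Sca1-negative library, at 316.1 CPM. The Sca1-negative and Sca1-positive ranges overlapped once Sca1-positive 1 of the age table was included. Over the 9 perinatal libraries the sum ranged 10.6-fold, and it took 0.0155% to 0.165% of all counts. In bulk samples such as these, fewer cells of a type and less RNA per cell cannot be told apart.

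The make-up of the globin signal was far steadier than its amount. The ratio of alpha to beta counts, which are not scaled per length, was between 2.11 and 2.86 over the 9 perinatal libraries, with a median of 2.53. It was 2.35, 2.53 and 2.11 in knockouts 1, 2 and 3, 2.77 and 2.45 in Sca1-negative 2 and 3, and 2.51 to 2.86 in the 4 Sca1-positive libraries. The knockout and Sca1-positive ranges touched, at 2.53 against 2.51. Within the beta counts, Hbb-bt took 24.6% to 31.7%, with a median of 26.2%. The extremes were both libraries labelled Sca1-negative, 24.6% in replicate 2 and 31.7% in replicate 3.

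Within the alpha counts, Hba-a1 took 46.6% to 53.5%, with a median of 48.4%. It exceeded Hba-a2 in knockout 1, with 51.1%, and in Sca1-positive 1 of the knockout table, with 53.5%, and in no other perinatal library. How reads were shared between these copies was not the same in each table. The library Sca1-positive 3 had 8394 Hba-a1 and 8628 Hba-a2 counts in the knockout table, and 8370 and 8652 in the age table, with the same alpha sum of 17022 in both. A split between the copies is therefore uncertain, while the sum was stable.

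Per length, by the authors' deposited TPM (transcript level scaled to length and library size) for the age and Sca1 tables, Hba-a2 stood above Hba-a1 in each perinatal library of those tables, followed by Hbb-bs, Hbb-bt, Alas2 and Slc4a1. In Sca1-negative 3 the TPM levels were 1443.5 for Hba-a2, 1062.2 for Hba-a1, 533.5 for Hbb-bs and 222.7 for Hbb-bt, with 7.24 for Alas2 and 0.999 for Slc4a1. In Sca1-positive 3 they were 2614.4, 1970.2, 982.2 and 326.9 in the same order of globins, with 11.6 for Alas2 and 0.693 for Slc4a1. The order of the genes was the same in both libraries. The TPM sum of the 4 globins was 1097.9 and 3261.9 in Sca1-negative 2 and 3, against 4545.7 and 5893.7 in Sca1-positive 2 and 3.

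Alas2 and Slc4a1 varied more against the globins than the globins did among themselves. Alas2 had 7.57, 5.43 and 2.26 counts per 1000 globin counts in knockouts 1, 2 and 3, 4.77 and 7.33 in Sca1-negative 2 and 3, and 5.11 to 8.27 in Sca1-positive libraries. Knockout 3, the lowest, rests on 9 Alas2 counts. Slc4a1 had 4.06, 2.38 and 0.754 counts per 1000 globin counts in knockouts, 0.830 and 3.66 in Sca1-negative libraries, and 1.32 to 1.5 in Sca1-positive libraries. The narrow Sca1-positive range lay inside the wide knockout and Sca1-negative ranges, where the lowest values rest on 3 and 4 Slc4a1 counts.

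**Figure D2:**
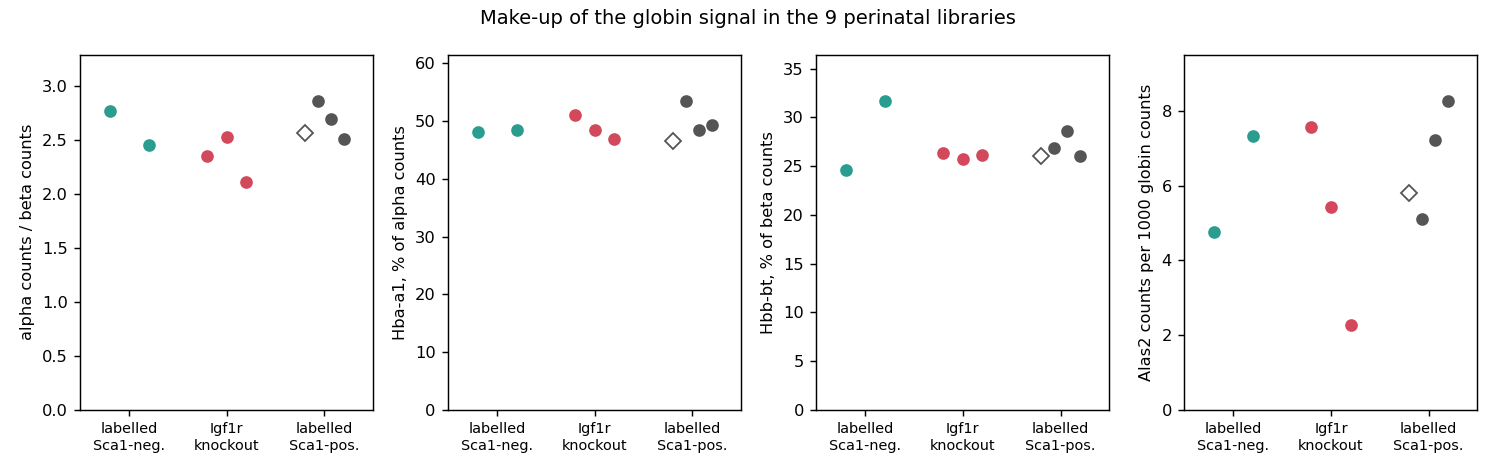
Ratio of alpha to beta counts, share of Hba-a1 in alpha counts, share of Hbb-bt in beta counts, and Alas2 counts per 1000 globin counts in the 9 perinatal libraries, on linear axes from 0. Points are libraries, and the open diamond is Sca1-positive 1 of the age table. The alpha to beta ratio stays between 2.11 and 2.86 while Alas2 per 1000 globin counts ranges from 2.26 to 8.27.

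Other erythroid genes, from 6 lists of 76 genes that do not include the genes above, were tested with edgeR across each whole table. In adult against Sca1-positive cells, 20 of 45 tested list genes were higher, 14 lower and 11 did not pass, so 75.6% were called where 77.1% of all genes were. The median log2 fold change of the list was 0.09 and that of all genes -0.06. The list as a whole therefore moved in both directions in adult cells, as all genes did.

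Haem synthesis genes split in adult cells, with 4 of 11 higher and 5 lower. Slc25a37, which encodes the mitochondrial iron importer mitoferrin, had 1123, 1038 and 842 counts in adults against 105, 93 and 107 (log2 fold change 2.98, SE 0.17, edgeR adjusted p = 3.97e-06). Urod, which encodes an enzyme in the middle of the haem pathway, fell by 1.24 on the log2 scale (edgeR adjusted p = 3.79e-05). Of the red cell membrane and skeleton genes, 3 of 10 were higher and 4 lower. The water channel gene Aqp1 fell to 322, 210 and 198 counts in adults, against 10244, 12641 and 9511 (log2 fold change -5.77, SE 0.22, edgeR adjusted p = 8.91e-07). Rhd, of the Rh blood group complex, had 5, 4 and 2 counts in adults against 55, 89 and 45 (log2 fold change -4.34, SE 0.39, edgeR adjusted p = 3.22e-05), and Gypc, a glycophorin gene, fell by 2.51 on the log2 scale (edgeR adjusted p = 4.39e-06). Rhd passed the filter on low counts only through its Sca1-positive libraries, so it could only come out lower. Aqp1 and Gypc are also expressed outside red cells.

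Of the 10 erythroid transcription factor genes 5 were tested, of which 4 were higher in adult cells and 1 lower. The rest of that list, named here in full, was too low for the test, and each gene had a lower mean CPM in adults. Klf1, the erythroid factor gene, had 5, 3 and 1 counts in adults and 5, 19 and 14 in Sca1-positive libraries. Gata1 had 1, 0 and 0 counts against 0, 10 and 4, and Nfe2 had 3, 1 and 3 against 2, 13 and 9. Gfi1b had 0, 0 and 0 counts against 0, 6 and 8, and Myb had 0, 0 and 5 against 8, 6 and 1. Of 7 tested erythropoietin and iron uptake genes 3 were higher, 0 were lower and 4 did not pass. Tal1, a basic helix-loop-helix factor of blood stem cells and red cells, had 430, 329 and 272 counts in adults and 2, 5 and 2 in Sca1-positive libraries (log2 fold change 6.49, SE 0.31, edgeR adjusted p = 2.24e-06). Tal1 passed the filter on low counts only through its adult libraries. Its partner Lmo2 rose by 5.35 (edgeR adjusted p = 4.88e-05) and the GATA1 cofactor gene Zfpm1 by 2.83 (edgeR adjusted p = 5.96e-05) on the log2 scale. Slc11a2, Tfrc and Tfr2, which encode an iron transporter and the transferrin receptors, rose by 1.97, 2.36 and 1.29 (edgeR adjusted p = 2.98e-05, 0.00217 and 0.00975). These factors and receptors also work in other blood cells. Of red cell enzyme and maturation genes, 6 of 12 were higher and 4 lower: the peroxiredoxin gene Prdx2 fell by 1.49 and Ypel4 fell by 3.14, while the ubiquitin ligase gene Mkrn1 rose by 1.65 on the log2 scale (edgeR adjusted p = 1.63e-05, 3.46e-05 and 2.95e-05).

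Some list genes known mainly from red cells had, like the globins, no reads in adult cells, and very few in perinatal cells. Of the 64 list genes in the age table, 12 had 0 counts in each adult library (18.8%, where 5.54% of all genes did), and 0 had 0 counts in each perinatal library (1.51% of all genes). They included Hbq1b, Tspo2, Epb42, Rhag, Kel, Cldn13, Gfi1b, Car1, Trim10 and Hemgn, named after their values were seen. Each of these 10 had between 0 and 12 counts in the Sca1-positive libraries. Rhag, which encodes the Rh-associated glycoprotein of the red cell membrane, had 7, 6 and 7 counts in Sca1-positive 1, 2 and 3, and Epb42, which encodes a protein of the membrane skeleton, had 3, 10 and 5. These genes were too low for the test, and no fold is given. Of the embryonic and other globin genes fixed in the lists, Hbq1b, a theta globin gene, is listed with 0 in each adult library and 4, 5 and 5 counts in Sca1-positive libraries.

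Between libraries labelled Sca1-negative and Sca1-positive, 1 of 47 tested erythroid list genes was higher and 3 were lower, 8.51% of the list against 4.41% of all genes tested. The list median was -0.16 and that of all genes 0.01 on the log2 scale. Tfrc had 54 and 21 counts in Sca1-negative libraries against 292 and 176 (log2 fold change -2.47, SE 0.42, edgeR adjusted p = 0.0292). Rhd had 11 and 13 counts against 89 and 45 (log2 fold change -2.28, SE 0.43, edgeR adjusted p = 0.0399). Cbfa2t3, a corepressor gene of the erythroid complex, had 19 and 13 counts against 75 and 56 (log2 fold change -1.86, SE 0.37, edgeR adjusted p = 0.0451). Lmo2 rose to 169 and 174 counts in Sca1-negative libraries, against 44 and 30 (log2 fold change 2.38, SE 0.26, edgeR adjusted p = 0.00726).

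The haem synthesis and the enzyme lists had 0 calls of 11 each in that comparison by edgeR, with 1 and 5 genes at an unadjusted p under 0.05. The haem enzyme gene Urod differed by 0.01 and Glrx5, of mitochondrial iron-sulphur assembly, by 0.24 on the log2 scale, while Prdx2 and the mitophagy gene Bnip3l differed by -0.01 and -0.04. None of these passed. Counts of calls moved with single libraries: without Sca1-negative 2 there were 3 list genes higher and 8 lower, without Sca1-negative 3 there were 6 and 16, and without Sca1-positive 2 there was 1 lower. DESeq2 gave 6 lower.

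In Igf1r knockouts 0 of 47 tested erythroid list genes passed in either direction with edgeR, where 0.0368% of all genes did. At an unadjusted p under 0.05, 1 was higher and 8 lower, and DESeq2 called 5 lower. The list median was -0.46 and that of all genes -0.03 on the log2 scale, and 11 list genes were lower without overlap and 1 higher, where 12.6% and 15.4% of all genes were. With the replicate block 0 list genes were called, without knockout 1 there were 8 lower and 1 higher, and without Sca1-positive 1 there were 1 lower and 1 higher.

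The 2 most abundant genes of 5 lists did not pass in the knockout comparison. Glrx5 and Urod differed by 0.10 and -0.42, Aqp1 and the glucose transporter gene Slc2a1 by -0.46 and -1.0, and Ldb1 and Lmo2 by -0.60 and 0.65 on the log2 scale. Steap3 and Slc11a2, of iron uptake, differed by -0.64 and -0.32, and Prdx2 and Bnip3l by -0.11 and 0.14. Of these, Slc2a1 (20.9 to 44.0 CPM in knockouts, 49.5 to 70.7 CPM in Sca1-positive libraries) and Urod (43.2 to 70.4 CPM in knockouts, 72.5 to 97.8 CPM in Sca1-positive libraries) were lower without overlap. Some less abundant genes, chosen after their values were seen, were lower without overlap. Klf1, the erythroid factor that binds CACCC, had 8, 1 and 4 counts in knockouts and 30, 19 and 14 in Sca1-positive 1, 2 and 3 (log2 fold change -2.55, SE 0.70, edgeR adjusted p = 0.177). Of that factor list 6 genes were tested, of which 2 were lower without overlap and 0 passed. Gata1 and Tal1 were too low for the test and overlapped between the groups. Gata1 had 13, 3 and 0 counts in knockouts against 0, 10 and 4, and Tal1 had 5, 2 and 16 against 1, 5 and 2. Tfr2 had 7, 7 and 2 counts in knockouts against 23, 40 and 28 (log2 fold change -2.77, SE 0.64, edgeR adjusted p = 0.176). Alad, the haem enzyme gene that acts after Alas2, had 458, 423 and 373 counts in knockouts against 904, 816 and 608 (log2 fold change -1.17, SE 0.22, edgeR adjusted p = 0.176). Klf1, Tfr2 and Alad did not pass the threshold, and Klf1 and Tfr2 passed the filter on low counts only through the Sca1-positive libraries.

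**Figure D3:**
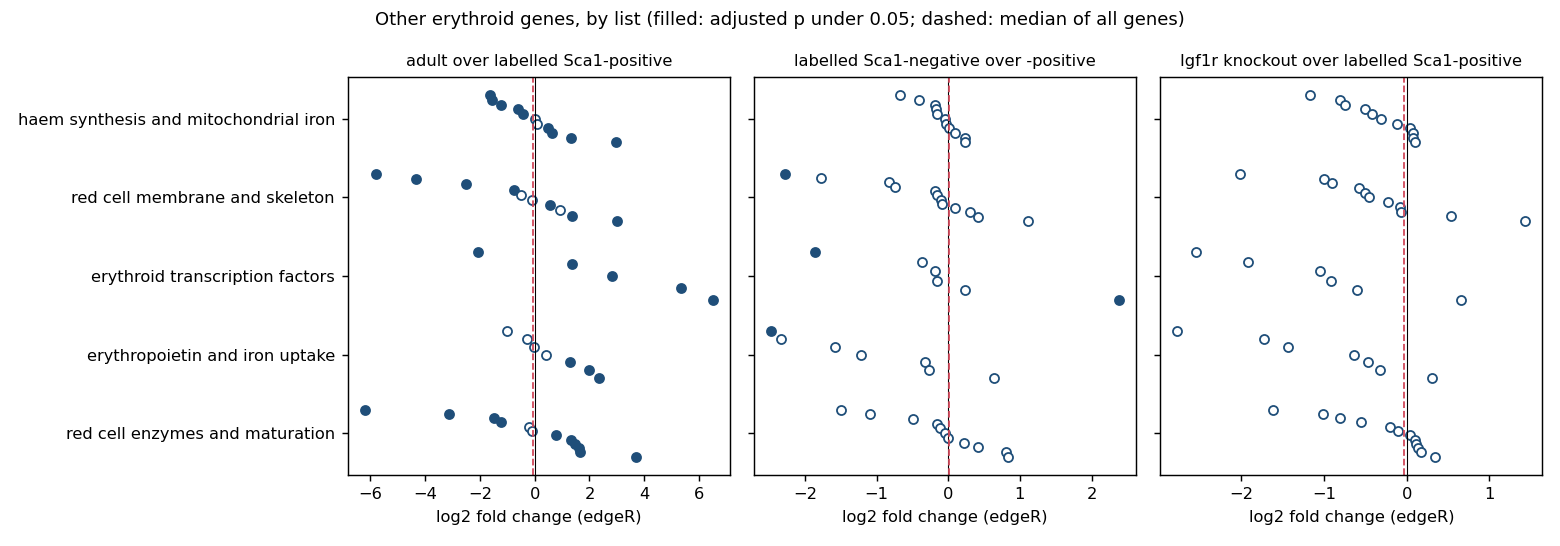
Log2 fold changes of the tested erythroid list genes in the 3 comparisons, one row per list, with filled points for an edgeR adjusted p under 0.05 and a dashed line at the median of all genes. Adult cells have 20 genes higher and 14 lower, the libraries labelled Sca1-negative have 1 and 3, and the knockouts have 0.

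Markers of other cells moved with the globins in some comparisons, and their part in the globin differences was not tested. Between adult and Sca1-positive libraries 37.4% of all genes tested were higher and 39.7% lower, 77.1% in either direction, and the list counts are to be read against these. Macrophage markers summed to 20421.8 to 22398.5 CPM in adults and 132.1 to 208.3 CPM in Sca1-positive libraries, with 11 of 12 higher and 1 lower. Adgre1, the gene of F4/80, had 15724, 17895 and 11812 counts in adults against 2, 4 and 5. Adgre1 passed the filter on low counts only through its adult libraries. Stromal markers summed to 2912.2 to 4211.0 CPM in adults and 56651.4 to 69076.7 CPM in Sca1-positive libraries. Of these 8 genes 6 were lower and 0 higher, where 39.7% of all genes were lower. The list median was -4.61 on the log2 scale, against -0.06 for all genes. Adult libraries, though sorted as stroma, held more macrophage than stromal marker reads.

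Neutrophil markers summed to 0.746 to 1.77 CPM in adults and 43.5 to 69.6 CPM in Sca1-positive libraries, with 7 of 8 tested lower. These 7 had at most 3 counts in any adult library. They passed the filter on low counts only through the Sca1-positive libraries and could only come out lower. S100a8 had 0, 3 and 0 counts in adults against 162, 155 and 154. Elane, Mpo, Ngp, Retnlg and S100a9 had 0 counts in each adult library, as the globins did. Megakaryocyte and platelet markers went the other way, with 57.1 to 64.2 CPM in adults and 16.3 to 39.7 CPM in Sca1-positive libraries, where 3 of 5 tested were higher and 2 lower. B lineage markers were at 109.1 to 111.5 CPM in adults and 4.99 to 8.99 CPM in Sca1-positive libraries, where 2 of 2 tested were higher, and T and NK markers stayed under 1 CPM in both. Endothelial markers summed to 19.7 to 25.1 CPM in adults and 74.6 to 115.7 CPM in Sca1-positive libraries, with 7 of 8 lower and 1 higher.

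In knockouts the neutrophil sum was 20.9 to 51.1 CPM, against 44.5 to 78.1 CPM in Sca1-positive libraries, and the ranges overlapped. Macrophage markers summed to 106.7 to 149.8 CPM in knockouts and 103.9 to 208.5 CPM in Sca1-positive libraries, and endothelial markers to 78.9 to 139.4 and 74.6 to 115.8 CPM. Megakaryocyte and platelet markers were at 26.8 to 37.3 CPM in knockouts and 16.0 to 48.0 CPM in Sca1-positive libraries, and stromal markers at 55745.3 to 65117.9 and 64314.1 to 69136.4 CPM. B lineage markers were at 3.53 to 4.82 CPM in knockouts and 4.98 to 9.0 CPM in Sca1-positive libraries, without overlap. T and NK markers were at 0.105 to 1.68 CPM in knockouts and 0.404 to 0.692 CPM in Sca1-positive libraries. Among these 7 list sums, the B lineage sum was the only one without overlap between knockouts and Sca1-positive libraries, and it is made of few reads.

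In the libraries labelled Sca1-negative the neutrophil sum was 59.9 and 118.5 CPM, against 44.5 to 69.7 CPM in Sca1-positive libraries, so it was not lower where the globins were. The megakaryocyte sum was 31.0 to 41.3 CPM against 15.7 to 23.3 CPM, and the macrophage sum 124.6 to 146.9 CPM against 194.5 to 207.9 CPM. B lineage markers were at 4.98 to 6.07 CPM against 6.35 to 8.23 CPM, endothelial markers at 113.8 to 131.6 CPM against 74.6 to 115.8 CPM, and stromal markers at 52230.2 to 60345.8 CPM against 65315.6 to 69098.0 CPM. Tek, an endothelial receptor gene, was the 1 gene of these other lists that passed, higher in Sca1-negative libraries by 2.5 on the log2 scale (edgeR adjusted p = 0.00377). Tek held 840 of 2007 and 960 of 1574 endothelial counts in Sca1-negative 2 and 3. In Sca1-positive 2 and 3 it held 181 of 2005 and 174 of 1078. The endothelial sum therefore leans on Tek, and the list median was -0.48 on the log2 scale. Sca1-negative 3 had the higher globin sum and also the higher neutrophil sum of its pair.

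**Figure D4:**
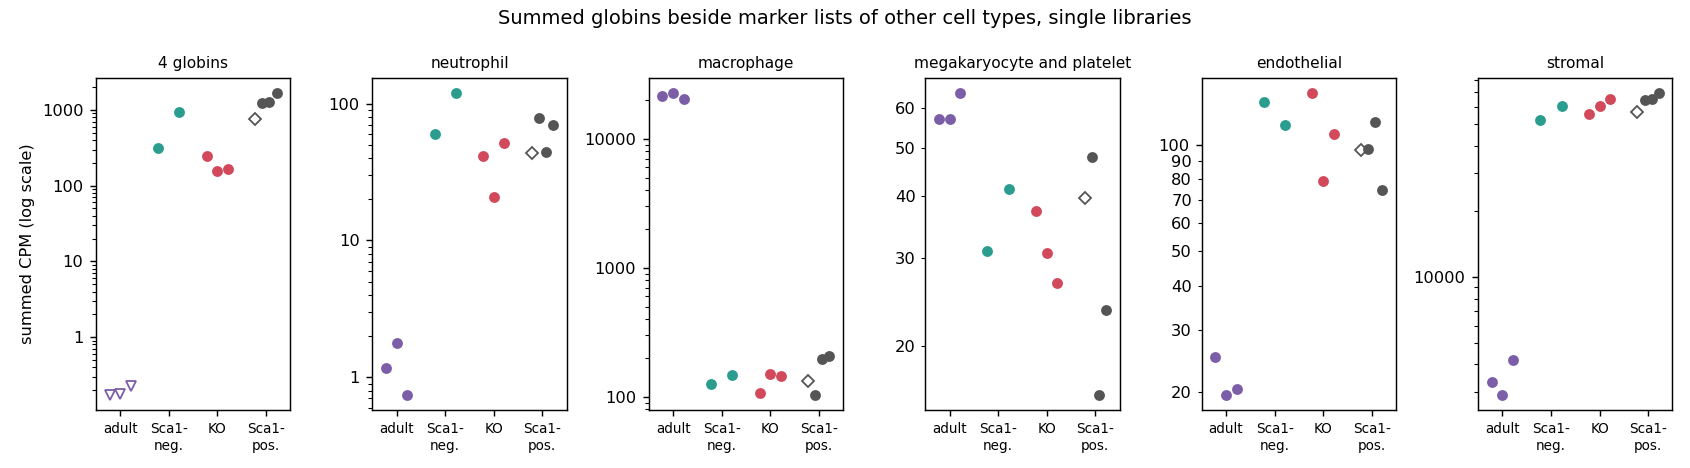
Summed CPM of the 4 globins and of 5 marker lists in single libraries, on log axes of different range. Open triangles mark adult libraries with 0 globin counts, drawn at the 3-count floor of 0.174 to 0.224 CPM, and the open diamond is Sca1-positive 1 of the age table. Adult libraries are low in globins and neutrophil markers and high in macrophage markers, and the knockouts stand apart from the Sca1-positive libraries in the globin panel.

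The genes whose level ran most like the globin sum were sought over the 9 perinatal libraries, by Pearson r of log2(CPM + 1) among 10215 genes listed in all tables with a mean of at least 5 CPM. The 9 libraries fall into groups and differ in depth and table, so r is a description only. The closest were Mvd (r = 0.982), Rcbtb2 (0.981), H2ac18 (0.98), Mdk (0.977), Alas2 (0.977), Cpz (0.974), Gprasp2 (0.958), Wdr6 (0.957), Acp5 (0.949) and Rbm10 (0.949). Alas2 was picked because its counts differed between these same libraries, so nothing is read from its rank. Apart from Alas2, 0 of these 10 genes were on the erythroid lists. Mvd encodes an enzyme of sterol synthesis and Mdk the growth factor midkine.

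The size of the change differed greatly among these genes. From the lowest to the highest library Alas2 ranged 36.0-fold, Cpz, a carboxypeptidase gene, 7.90-fold, and Mvd 5.25-fold, while Rcbtb2 ranged 1.68-fold. In total 8 genes had r above 0.95 and 15 had r below -0.95. Of the 10, 4 were also among the closest 10 in the 6 libraries of the knockout table. By Spearman's rho, where tied genes share a rank, 27 genes ranked at 10 or better, and 5 of the 10 were among them. Over the 31 erythroid list genes that met the level needed, the median r was 0.39, with a range of -0.72 to 0.93, and the median over all genes was 0.06. Alad, at 0.93, was the highest of the list.

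**Figure D5:**
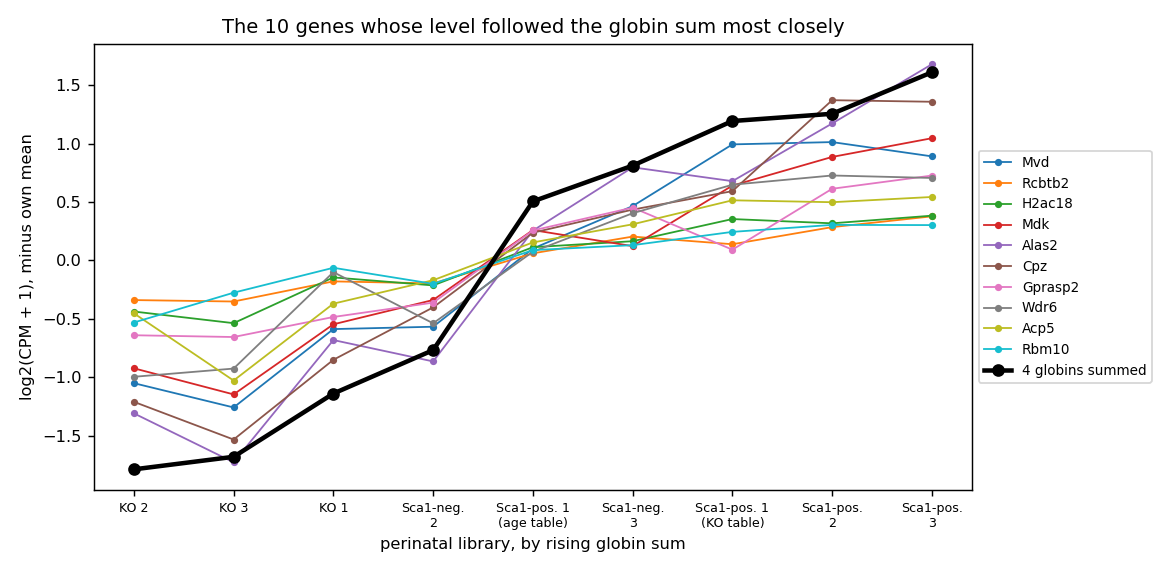
Log2(CPM + 1) of the 10 genes closest to the globin sum, each minus its own mean over the 9 perinatal libraries, with libraries along the axis by rising globin sum. The thick black line is the sum of the 4 globins. Alas2 spans a wide range, like the globins, and Rcbtb2 spans 1.68-fold.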

How the data were processed

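PolyA RNA of sorted mouse marrow stroma was sequenced in 11 samples of 4 groups, taken from the sample labels. Per the submitters' processing notes, Trimmomatic 0.32 trimmed the reads, DESeq2 was run and the genome was mm10. Not given in the sources used here: aligner, counter, annotation and strand, so antisense reads cannot be separated. The authors deposited 3 tables of raw counts per gene, with TPM values in the age and Sca1 tables, per the file headers. The columns headed TPM in the deposited knockout table hold log2 values, below 0 in 5 of 6 libraries, and were not used.

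CPM are counts per 1000000 counts of a library. Poisson intervals and the floor of 3 counts cover counting error only, and the floor was 0.126 to 0.224 CPM. Gene IDs were matched to GENCODE M21 for 16506 of 16507, 14267 of 14267 and 14910 of 14910 genes. Each table was fitted alone, on counts, with edgeR 4.0.16 in R 4.3.3 (filterByExpr, TMM, robust glmQLFit, glmQLFTest, group as the only term), with Benjamini-Hochberg adjustment over all genes tested and calls at an adjusted p under 0.05. DESeq2 1.42.0 was an alternative. The fit was tested on simulated data.

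The genes and lists were chosen with earlier results of these data known. Named list genes are the 3 called ones with the smallest adjusted p, or else the 2 most abundant. Some genes that this rule takes are not reported here. Other names are marked, and Igf1r, Ly6a and Pdgfra check the labels. In the knockout table, deviations of same-numbered libraries correlated at 0.268, 0.114 and 0.103, all above 0.1, the level set for pairing, so the blocked fit is given beside the result. The pairing is uncertain: knockout 3 correlated more with Sca1-positive 2 (0.304), the column of Sca1-positive 1 is numbered 5, and no shared batch is stated.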

Additional observations from a re-analysis of the deposited data

How the results depend on the processing

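The globin sums kept their direction under TMM-scaled totals, totals without globins, group medians, each library left out and, in the Sca1 table, the authors' TPM. Leaving out single libraries gave log2 ratios of -12.9 to -12.39 for age, -2.22 to -0.63 for the Sca1 labels and -3.11 to -2.74 for the knockout. Without Sca1-positive 2 and 3 the age ratio was -11.97. Calls moved more. With no filter on low counts, 24 erythroid list genes were lower in adults, against 14, as more genes were tested. For the Sca1 labels, 220 genes were higher and 377 lower. DESeq2 gave 428 and 598, the replicate block 577 and 792, and leaving out 1 library 143 to 2268 and 317 to 2567. List genes were 1 higher and 3 lower, against 2 and 6 with the block and 6 lower with DESeq2. Leaving out 1 library gave 1 to 6 higher and 1 to 16 lower. For the knockout, 0 genes were higher and 5 lower. DESeq2 gave 474 and 493, the replicate block 0 lower, and leaving out 1 library 0 to 1532 higher and 0 to 1471 lower. Without Sca1-positive 2 and 3 together, 0 were lower. List genes lower were 0, against 5 with DESeq2 and 0 to 8 with 1 library left out, with 0 to 1 higher. The cause of these moves was not tested. In the age table the replicate numbers did not pair the libraries (correlations -0.0452, -0.027 and 0.248), and with 2 pairs in the Sca1 table (0.348 each) pairing could not be judged. Where leaving out a library left 1 in a group, it was assumed to vary like the others. For single named genes, 334 of 336, 177 of 198 and 289 of 300 values kept their call for age, Sca1 and knockout, and 0 were reversed. Low counts limit Slc4a1 and the red cell genes with fewer than 20 counts.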
